A study of Mus musculus with 11 samples.

Results

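The genes described here are 10 chaperones and stress factors of the mouse hippocampus. Hspa5, Hsp90b1, Calr, Pdia4, Sdf2l1 and Manf encode proteins of the endoplasmic reticulum, Xbp1 and Ddit3 encode transcription factors of the reticulum stress response, and Hspa8 and Hsp90aa1 encode chaperones of the cytosol. They were taken by symbol from a table of 22377 genes, and they were chosen with earlier results of these data known. All 10 were found and all 10 were among the 16057 genes with a mean of at least 1 CPM (counts scaled to a common library total), which were tested. Ddit3 had 2 rows with the same reads in every library, for annotated genes that overlap on the same strand, and it was counted once.

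Transcripts were measured by cap analysis of gene expression (CAGE), in which reads start at the capped 5′ end of an RNA, on total RNA of whole hippocampus from C57BL/6N male mice. There were 11 libraries, each the only one of its group: 1 from untreated naive mice, whose side is not given, and 10 from mice with photothrombosis (PT), a focal infarct of the left parietal cortex made with 35 mg/kg rose bengal and light of 565 nm for 30 min. The 5 PT conditions were 7 d, 7 d with levetiracetam (LEV, used against seizures, a ligand of the synaptic vesicle protein SV2A), 1 m, 1 m with LEV, and 2 m after LEV withdrawal, each with 1 library per side, infarcted and non-infarcted. LEV was drunk at 5 mg/mL. The study's text places it 1 month after PT for 2 weeks with 1 week of withdrawal, whereas the labels give 2 weeks of withdrawal. The sources used here do not say when the 7 d libraries received LEV, nor how much the 1 m libraries had received. The mice were 8 to 10 or 65 to 85 weeks old, and the labels do not say which age or how many animals went into a library, nor whether both sides share animals. Library totals were 13382623 to 22377376 reads. All p-values therefore rest on the spread between these libraries and, in the tests of single genes, also on spread borrowed from other genes. No condition has a replicate on the same side.

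Proteins that enter the endoplasmic reticulum fold there with the help of chaperones, and when unfolded proteins build up, membrane sensors (IRE1, PERK and ATF6) start the unfolded protein response. IRE1 splices the Xbp1 transcript, ATF6 is cleaved to a transcription factor, and both act on chaperone genes through promoter elements that join CCAAT and CCACG. PERK slows translation and raises ATF4, whose targets include Ddit3, the gene of CHOP. Cytosolic HSP70 and HSP90 proteins serve the heat shock response under HSF1. In neurons these proteins are abundant, and reticulum stress and heat shock genes are widely studied after cerebral ischemia.

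In GRCm38 coordinates (GENCODE M21), Hspa5 lies at chr2:34771970-34777547 on the plus strand. Hsp90b1 lies at chr10:86690209-86705509 on the minus strand, where Gm15344 and Gm25745 overlap it on the same strand and 1810014B01Rik on the other. Calr is at chr8:84841850-84846934 (minus), Pdia4 at chr6:47796141-47813430 (minus, with Mir704 within it) and Sdf2l1 at chr16:17130138-17132383 (minus). Manf is at chr9:106838312-106891979 (minus), a span that also holds Rbm15b on the same strand and Dcaf1 on the other. Xbp1 is at chr11:5520659-5525893 (plus), Ddit3 at chr10:127290774-127296288 (plus, with Gm4189 and Mars on the other strand), Hspa8 at chr9:40800984-40810087 (plus, with Snord14c, Snord14d and Snord14e within it) and Hsp90aa1 at chr12:110690605-110702728 (minus). The rule that gave reads to overlapping genes is unknown here, so the values of Hsp90b1, Pdia4, Manf, Ddit3 and Hspa8 are uncertain to that extent.

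RefSeq promoter sequences (GRCm38.p6) were at hand for 7 of the 10 genes, all but Manf, Hspa8 and Hsp90aa1. The element through which ATF6 and XBP1 act, searched as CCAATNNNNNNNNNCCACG on both strands from 250 bases before to 50 bases after the start site, was found in 3 of the 7. It occurs in 0.119% of 32851 promoters of the same length. The 250 bases before the start of those 3 genes are shown, on the gene's strand, since Hspa5, Hsp90b1 and Calr are the members whose promoters carry this shared element. Capitals mark the element in each, and in Hspa5 also the 7 bases TGACGTG, the core of another element bound by XBP1 and ATF6, found in 2.01% of promoters.
Hspa5, chr2:34771840-34772089, plus strand: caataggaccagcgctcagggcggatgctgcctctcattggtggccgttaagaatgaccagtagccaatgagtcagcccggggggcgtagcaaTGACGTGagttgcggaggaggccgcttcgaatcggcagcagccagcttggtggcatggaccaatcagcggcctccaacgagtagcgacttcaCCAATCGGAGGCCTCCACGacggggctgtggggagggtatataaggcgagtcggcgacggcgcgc
Hsp90b1, chr10:86705445-86705694, minus strand: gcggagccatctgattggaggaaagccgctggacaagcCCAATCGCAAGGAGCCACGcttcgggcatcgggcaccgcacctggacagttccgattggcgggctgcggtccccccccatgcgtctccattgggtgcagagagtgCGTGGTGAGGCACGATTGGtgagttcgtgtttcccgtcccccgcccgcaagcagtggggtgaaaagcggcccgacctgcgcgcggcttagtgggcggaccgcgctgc
Calr, chr8:84846932-84847181, minus strand: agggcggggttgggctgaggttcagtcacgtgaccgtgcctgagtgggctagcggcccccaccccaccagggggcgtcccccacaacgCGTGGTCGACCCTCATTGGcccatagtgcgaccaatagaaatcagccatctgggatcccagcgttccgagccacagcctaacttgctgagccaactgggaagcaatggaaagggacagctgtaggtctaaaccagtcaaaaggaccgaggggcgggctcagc
The element begins 65 bases before the RefSeq start in Hspa5, at 212 and 107 bases in Hsp90b1, and at 162 bases in Calr. In Calr it is on the reverse strand, as is the nearer one of Hsp90b1. These RefSeq starts differ from the GENCODE gene bounds given above. The bases shown for all 3 genes reach into the GENCODE gene, most of all for Hspa5, where the element itself lies within it. The shorter form ATTGGNCCACG (0.0365% of promoters), the heat shock element GAANNTTCNNGAA (0.603%) and the ATF4 element TGATGCAA (0.895%) had no match in the 7 windows.

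Most of the chaperone genes were higher at 7 d after PT than at 1 m, on both sides and with or without LEV. In what follows, the infarcted side is given first and the non-infarcted side second. Hspa5, the main HSP70 chaperone of the reticulum, stood at 128 CPM in the naive library, at 193 and 191 at 7 d, at 164 and 158 at 7 d with LEV, at 121 and 119 at 1 m, at 104 and 128 at 1 m with LEV, and at 193 and 173 at 2 m after withdrawal. The 6 libraries of 7 d and 2 m were all above the naive library and the 4 libraries of 1 m, with no overlap. Hsp90b1, the HSP90 of the reticulum, showed the same parting of libraries at 304 CPM in naive, 472 and 449.9 at 7 d, 436 and 420.3 at 7 d with LEV, 337 and 323 at 1 m, 377 and 392 at 1 m with LEV, and 439 and 449 at 2 m. The parting was narrower there, since 1 m with LEV lay at 392 and 7 d with LEV at 420.3 CPM. Of the 10 genes, 4 (Hspa5, Hsp90b1, Pdia4 and Hspa8) had all 7 d and 2 m libraries above the naive and 1 m libraries, against 11.9% of all genes tested. This grouping of libraries was chosen after earlier results were known, and the labels name no batch, so condition and any difference in library preparation between these sets cannot be told apart.

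**Figure D1:**
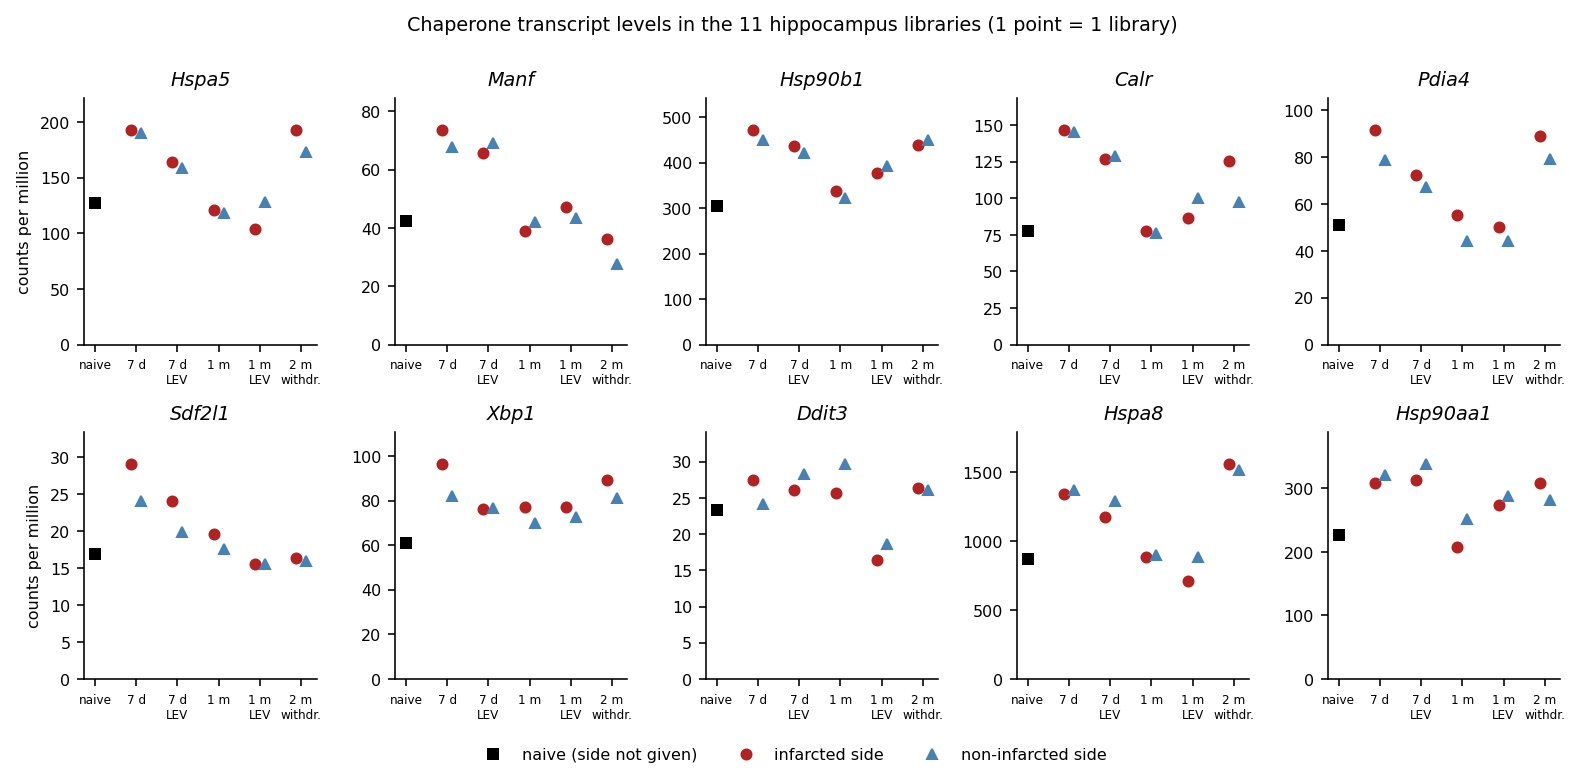
Level of each of the 10 genes in CPM (vertical axes, each from 0) in the 11 libraries, by condition (horizontal axis). Each symbol is 1 library: square, naive; circle, infarcted side; triangle, non-infarcted side. Hspa5, Pdia4 and Hspa8 are high at 7 d and 2 m, Manf and Sdf2l1 are high at 7 d only, and Ddit3 is lowest at 1 m with LEV.

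Among the folding factors, Calr, a calcium-binding lectin chaperone, stood at 77.6 CPM in naive, 147 and 145 at 7 d, 127 and 129 at 7 d with LEV, 77.9 and 76.6 at 1 m, 86.4 and 100.1 at 1 m with LEV, and 126 and 97.7 at 2 m. Its 2 m library of the non-infarcted side fell within the range of 1 m with LEV, so 2 m and 1 m overlapped. Pdia4, a disulfide isomerase, stood at 50.9 CPM in naive, 91.7 and 79.0 at 7 d, 72.5 and 67.5 at 7 d with LEV, 55.4 and 44.3 at 1 m, 50.3 and 44.4 at 1 m with LEV, and 88.9 and 79.1 at 2 m. Sdf2l1, a partner of reticulum DNAJ proteins, was the least abundant reticulum member by reads, at 16.9 CPM in naive, 29.1 and 24.0 at 7 d, 24.1 and 19.8 at 7 d with LEV, 19.7 and 17.6 at 1 m, 15.6 and 15.5 at 1 m with LEV, and 16.3 and 16.0 at 2 m. It was thus not high at 2 m, and its 7 d and 1 m libraries were separated by 19.8 against 19.7 CPM, within counting error. Counting error alone, as the half-width of the exact 95% Poisson interval of 1 library, was at most 13.0% of the value for Sdf2l1, 12.3% for Ddit3, 9.17% for Manf, 4.90% for Hspa5 and 1.85% for Hspa8.

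The cytosolic HSP70 Hspa8, which is expressed in all cells without stress, moved like Hspa5. It stood at 871 CPM in naive, 1342 and 1370.4 at 7 d, 1174 and 1292.5 at 7 d with LEV, 884 and 898 at 1 m, 713 and 884 at 1 m with LEV, and 1561.5 and 1516 at 2 m. The 2 m libraries were the highest, and the lowest 7 d library was above the highest 1 m library. Hsp90aa1, the inducible HSP90 of the cytosol, stood at 227 CPM in naive, 308 and 321 at 7 d, 313 and 339 at 7 d with LEV, 207 and 251 at 1 m, 273 and 288 at 1 m with LEV, and 309 and 282 at 2 m. Here the 2 m library of the non-infarcted side lay between the 1 m libraries with LEV.

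Of the transcription factors of the stress response, Xbp1 shared this course in part and Ddit3 did not. Xbp1, a target as well as an agent of the response, stood at 60.9 CPM in naive, 96.5 and 82.2 at 7 d, 76.5 and 76.6 at 7 d with LEV, 77.2 and 70.2 at 1 m, 77.2 and 72.9 at 1 m with LEV, and 89.2 and 81.45 at 2 m. The naive library was below all 10 PT libraries, and the 7 d and 1 m libraries overlapped. CAGE reads mark the start of a transcript, so spliced and unspliced Xbp1 were not separated. Ddit3 stood at 23.4 CPM in naive, 27.5 and 24.1 at 7 d, 26.1 and 28.3 at 7 d with LEV, 25.6 and 29.7 at 1 m, 16.5 and 18.6 at 1 m with LEV, and 26.3 and 26.1 at 2 m. Both libraries of 1 m with LEV were below the other 9.

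The first question of the design is how the hippocampus differs between 7 d and 1 m after PT. At 1 m, 6 of the 10 genes fell against 7 d and none rose, whereas 10.1% of all genes tested fell and 5.71% rose. Since the 10 genes were chosen with earlier results of these data known, these shares do not test for an excess among chaperones. The test was limma on log2(CPM + 1) over 4 condition means (7 d and 1 m, each without and with LEV, sides averaged), with p-values adjusted over all genes. It leaves 1 residual degree of freedom against a prior of 21.6. The SE and p of each gene thus rest mostly on spread borrowed from other genes. Calr fell by 0.68 ± 0.13 (SE) on the log2 scale (adjusted p = 0.000823), from a mean of 137 ± 10.6 CPM (SD, n = 4 libraries) at 7 d to 85.2 ± 10.8 CPM at 1 m. Manf, a secreted reticulum protein with neurotrophic activity, fell by 0.67 ± 0.12 (adjusted p = 0.000592), and Pdia4 fell by 0.66 ± 0.12 (adjusted p = 0.000672). These differences were lower in 4 of 4 pairs of libraries for each of the 3 genes. Hspa5 fell by 0.58 ± 0.12 (adjusted p = 0.00228), from 176 ± 17.9 to 118 ± 10.2 CPM, and Sdf2l1 fell by 0.48 ± 0.13 (adjusted p = 0.0145). The cytosolic Hspa8 fell by 0.62 ± 0.15 (adjusted p = 0.00600), from 1295 ± 86.7 to 845 ± 88.0 CPM. Reticulum and cytosolic members were thus both among the genes that fell.

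The other 4 genes did not pass the test. Hsp90b1 differed by -0.32 ± 0.13 (adjusted p = 0.107) and Hsp90aa1 by -0.34 ± 0.13 (adjusted p = 0.0733), each lower at 1 m in 4 of 4 pairs. Ddit3 differed by -0.26 ± 0.15 (adjusted p = 0.254) and Xbp1 by -0.15 ± 0.12 (adjusted p = 0.428), with 1 of 4 pairs higher at 1 m. The median difference of the 10 genes was -0.53, against -0.06 over all genes tested. All 7 d libraries were above all 1 m libraries for 8 of the 10 genes, all but Xbp1 and Ddit3, against 19.1% of genes tested. The calls depend on scaling: with TMM factors, none of the 10 passed, with adjusted p of 0.0572 to 0.0920 for the same 6 genes. Over all genes the split was then 185 higher and 149 lower, in place of 917 higher and 1620 lower. Without the filter on low values none passed either (0.0931 to 0.144), edgeR on the recovered reads called Manf and Pdia4, and DESeq2 called 5 of the 6, all but Sdf2l1.

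**Figure D2:**
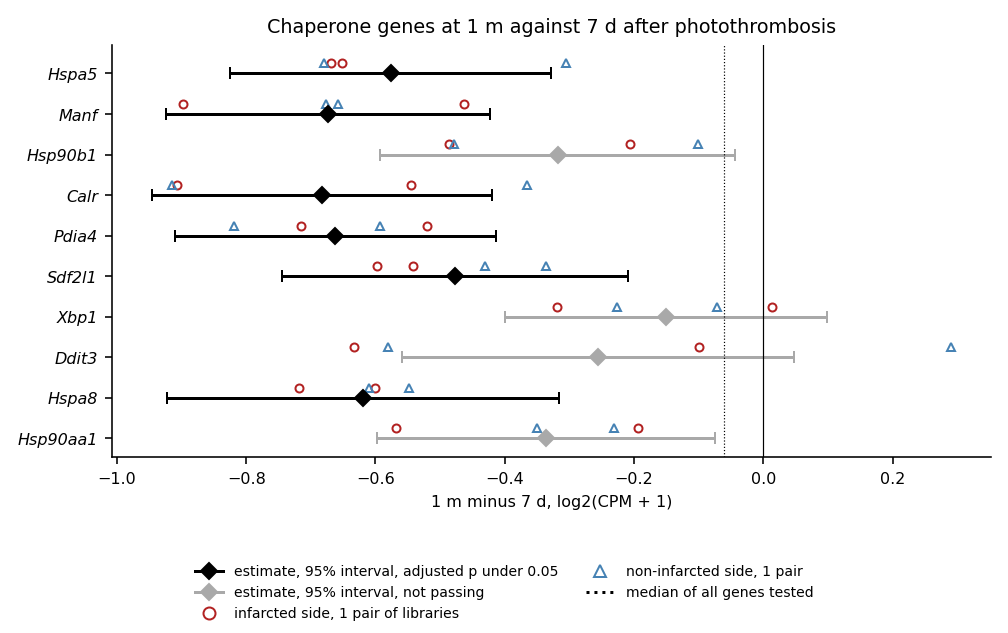
Difference of log2(CPM + 1), 1 m minus 7 d, for the 10 genes (horizontal axis). Diamonds with bars are the limma estimate and its 95% interval, black where the adjusted p is under 0.05; open symbols are the 4 single pairs of libraries (circles infarcted, triangles non-infarcted), and the dotted line is the median of all genes tested at -0.06. Hspa5, Manf, Calr, Pdia4, Sdf2l1 and Hspa8 lie between -0.68 and -0.48 and pass.

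Markers of other tissue moved with time as well. The summed level of 12 choroid plexus genes was 3192 to 4869 CPM at 7 d, 60.0 to 1812 CPM at 1 m, 4082 and 1280 CPM at 2 m and 4207 CPM in naive, and all 12 were detected. Without the 2 libraries of 1 m lowest in these genes, Hspa5 was at -0.66 and Hspa8 at -0.69 for 1 m against 7 d. This setting was added after the data were seen. The 1 m libraries that were kept, at 1448 and 1812 CPM, were still below every 7 d library in choroid plexus genes. Leaving the others out thus does not remove that difference between the times. The 9 neuronal markers of the hippocampus summed to 2185 CPM in naive, 2453 to 2700.1 at 7 d, 2267 to 2475 at 1 m and 2812 to 2852 at 2 m. Myelin genes summed to 4183 and 4922 CPM at 2 m, above all other libraries. The part of cell composition in the differences between 7 d and 1 m, or at 2 m, was not tested. In such bulk tissue, fewer cells of a type and less RNA per cell cannot be told apart.

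Against the naive library, which has no replicate, only differences shared by both sides were counted, with no test. No member differed by a log2 of 1 or more on both sides in any PT condition, a size reached by 1.00% of genes at 7 d, 0.922% at 7 d with LEV, 0.262% at 1 m, 0.436% at 1 m with LEV and 2.14% at 2 m. At 7 d, 6 of the 10 genes (Hspa5, Manf, Hsp90b1, Calr, Pdia4 and Hspa8) were higher by at least 0.5 on both sides, against 3.48% of genes. Calr was highest of these, by 0.91 and 0.90. At 7 d with LEV, 2 genes (Manf, by 0.62 and 0.69, and Calr, by 0.70 and 0.73) were higher by that much, against 3.07% of genes. At 1 m and at 1 m with LEV no member was, against 0.442% and 2.30% of genes. The median difference of the 10 genes from naive was 0.64 and 0.57 at 7 d and 0.07 and 0.05 at 1 m, where the median over all genes was 0.06 and 0.01, then 0.02 and -0.00. All these comparisons share the 1 naive library.

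After LEV withdrawal at 2 m, the chaperones parted. All 2 m libraries came from the withdrawal condition, so time after PT and withdrawal cannot be told apart there. Hspa8 was higher than naive by 0.84 and 0.80, Pdia4 by 0.79 and 0.63, and Hsp90b1 by 0.53 and 0.56. These 3 were the members higher by at least 0.5 on both sides, against 8.74% of genes. The median difference over all genes was 0.09 and 0.05. With TMM factors, 0.985 in naive and 1.054 and 1.02 at 2 m, the differences from naive would be smaller. The cut of 0.5 was not repeated with these factors, so membership near it, as for Hsp90b1, depends on scaling. Hspa5 was higher by 0.59 and 0.44. Manf went the other way, by -0.23 and -0.60, and Sdf2l1 stood at -0.05 and -0.07.

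Manf levels were 42.5 CPM in naive, 73.65 and 67.9 at 7 d, 65.7 and 69.3 at 7 d with LEV, 39.1 and 42.1 at 1 m, 47.3 and 43.5 at 1 m with LEV, and 36.1 and 27.8 at 2 m. The 4 libraries of 7 d were the highest, and the 2 libraries of 2 m were the lowest of the 11. The exact 95% Poisson interval of the higher 2 m library, 33.4 to 38.9 CPM, overlapped that of the lowest 1 m library, 35.8 to 42.6 CPM. In 99 genes, 0.617% of those tested, all 7 d libraries were above and both 2 m libraries below the naive and 1 m libraries, and Manf was the 1 member among them. This pattern was singled out after the values were seen. Dnajb11, a reticulum DNAJ protein that works with the Hspa5 product, was also low at 2 m. It stood at 32.9 and 40.9 CPM there, against 51.6 CPM in naive and 65.9 to 72.0 CPM at 7 d. Dnajb11 is named outside the rule for list genes and does not stand for its list. Of 22 further reticulum genes, 3 were higher than naive by at least 0.5 on both sides at 2 m and 1, Ero1l, was lower. Dnajb11 did not reach that size on both sides.

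Compared with 1 m under LEV, the withdrawal libraries were higher in Hspa8 by 1.13 and 0.78 and in Pdia4 by 0.81 and 0.82, the 2 members past 0.5 on both sides, against 13.0% of all genes. No member passed a log2 of 1 on both sides, against 2.97% of genes. Hspa5 differed by 0.89 and 0.43, Ddit3 by 0.64 and 0.47, and Manf by -0.38 and -0.63. This comparison has 1 library a side in each state and no test. Time after PT and withdrawal change together in it, so the 2 cannot be told apart.

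The next comparison sets the reticulum chaperones Hspa5 and Manf against the cytosolic Hspa8 within a library. The ratio of Hspa5 to Hspa8 CPM was 0.147 in naive, 0.144 and 0.139 at 7 d, 0.139 and 0.123 at 7 d with LEV, 0.137 and 0.132 at 1 m, 0.146 and 0.145 at 1 m with LEV, and 0.123 and 0.114 at 2 m. It spanned 0.114 to 0.147, a narrow range beside the 1.86-fold range of Hspa5 and the 2.19-fold range of Hspa8 themselves. The ratio of Manf to Hspa8 was 0.0488 in naive, 0.0549 and 0.0495 at 7 d, 0.0559 and 0.0536 at 7 d with LEV, 0.0442 and 0.0469 at 1 m, 0.0664 and 0.0492 at 1 m with LEV, and 0.0231 and 0.0183 at 2 m. Both 2 m values were below the other 9. Manf against Hspa5 showed the same, at 0.187 and 0.160 at 2 m and between 0.323 and 0.456 elsewhere, so that Manf was low at 2 m relative to another reticulum chaperone too.

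**Figure D3:**
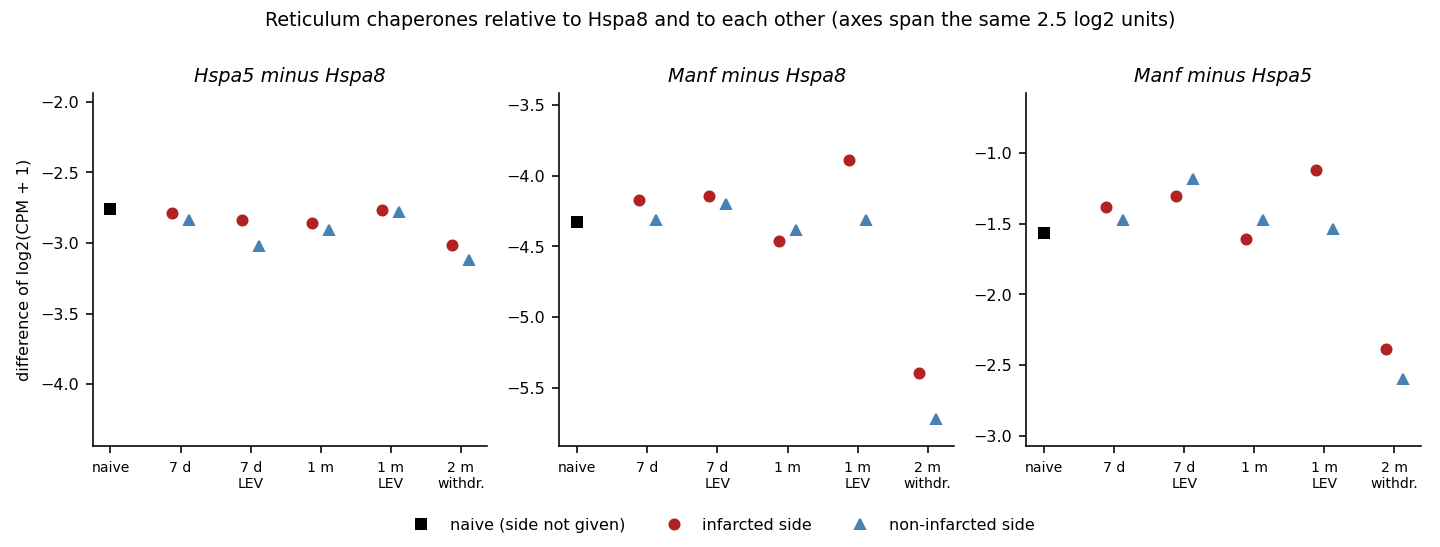
Difference of log2(CPM + 1) between Hspa5 and Hspa8, Manf and Hspa8, and Manf and Hspa5 (vertical axes, each spanning the same length) in the 11 libraries by condition. Symbols are single libraries as in the plot of levels. Hspa5 minus Hspa8 stays between -3.12 and -2.76, while Manf minus Hspa8 is at -5.40 and -5.72 at 2 m.

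Between sides, Hspa5 relative to Hspa8 was higher on the infarcted side in 5 of 5 conditions, by a mean of 0.08 ± 0.07 on the log2 scale (SD, n = 5). The exact two-sided sign-flip permutation test gave p = 0.0625, the smallest that 5 pairs allow, so the design could not reach 0.05. Manf relative to Hspa8 was higher on the infarcted side in 4 of 5 conditions, by 0.18 ± 0.20 (exact permutation p = 0.188). With LEV, Hspa5 relative to Hspa8 differed by -0.00059 ± 0.14 (SD, n = 4 pairs, exact permutation p = 1), and the direction turned to 0.0026 with a pseudocount of 5. Manf relative to Hspa8 was higher with LEV in 4 of 4 pairs, by 0.20 ± 0.26 (exact permutation p = 0.125, the smallest that 4 pairs allow). Without the 1 m pair of the infarcted side this last difference was 0.07. These 4 tests form a family, and none reached 0.05 before adjustment.

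For LEV against no LEV over 7 d and 1 m, limma called none of the 10 genes, where 0.0187% of all genes tested were called. None of the 10 reached an unadjusted p under 0.05, and edgeR and DESeq2 also called none. The estimates ran from -0.28 ± 0.15 for Ddit3 (adjusted p = 0.823) to 0.17 ± 0.13 for Hsp90aa1 (adjusted p = 0.876). Hsp90aa1 was higher with LEV in 4 of 4 pairs, while Sdf2l1, at -0.25 ± 0.13 (95% interval -0.52 to 0.02), and Hspa8, at -0.15 ± 0.15 (-0.46 to 0.15), were lower in 4 of 4. For Hspa5 the interval was -0.40 to 0.10.

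The LEV difference was then compared between 1 m and 7 d, over 8 libraries with side as a term. Ddit3, which encodes the pro-apoptotic factor CHOP, was the 1 member called (-0.70 ± 0.16, adjusted p = 0.0451), where 2.79% of all genes were called. At 1 m its LEV difference was -0.61 and -0.65, from 25.6 and 29.7 CPM to 16.5 and 18.6 CPM, and at 7 d it was -0.07 and 0.22. The call was lost on leaving out any one library other than the 7 d library of the infarcted side (adjusted p = 0.0639 to 0.234), and also without the filter (0.140) or the trend (0.163). Both sides may come from the same animals, in which case these p-values are too small. Calr went the other way (0.46 ± 0.11, adjusted p = 0.0519), with LEV differences of -0.21 and -0.17 at 7 d and 0.15 and 0.38 at 1 m. Hsp90b1 did likewise (0.33 ± 0.10, adjusted p = 0.102), at -0.12 and -0.10, then 0.16 and 0.28, and with TMM factors both passed (0.0267 and 0.0459). For Hspa8 the difference was -0.03 ± 0.14 (95% interval -0.33 to 0.28), and for Hspa5 0.20 ± 0.13 (-0.08 to 0.48).

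**Figure D4:**
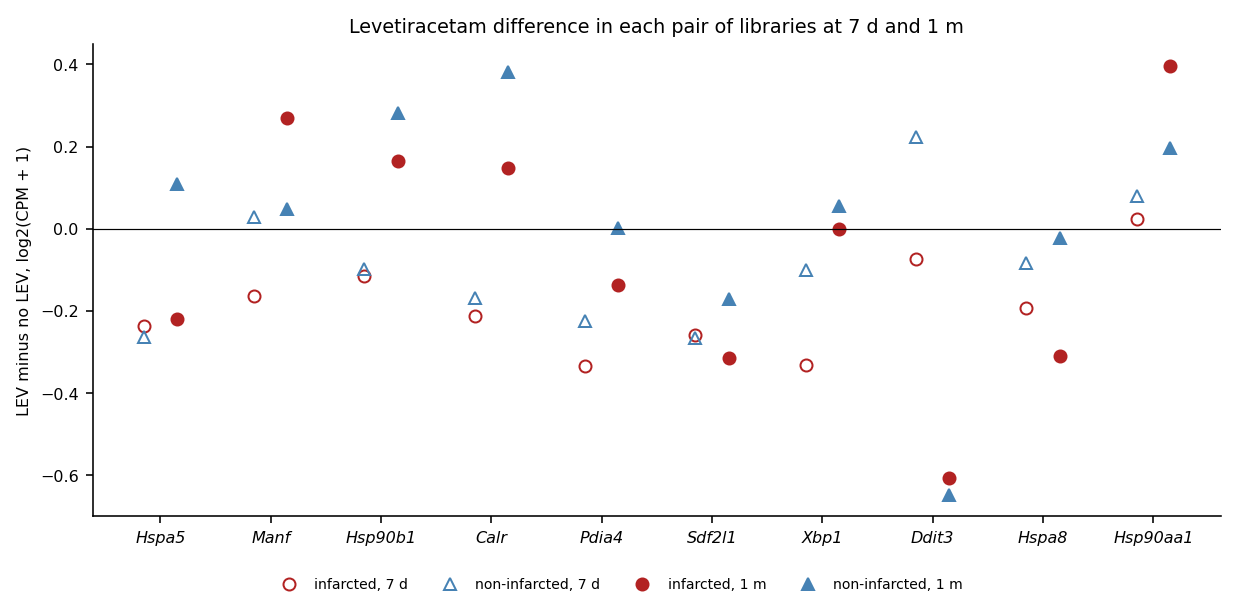
LEV minus no LEV on the log2(CPM + 1) scale (vertical axis) for the 10 genes (horizontal axis). Open symbols are 7 d and filled symbols 1 m, circles the infarcted and triangles the non-infarcted side, each from 1 pair of libraries. Ddit3 is at -0.61 and -0.65 at 1 m, Calr and Hsp90b1 are below 0 at 7 d and above 0 at 1 m, and Hsp90aa1 is above 0 in all 4 pairs.

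Between the infarcted and non-infarcted sides of the hippocampus, limma called none of the 10 genes over 5 pairs, where 0% of all genes tested were called and 1221 had an unadjusted p under 0.05. Over all genes edgeR called 0 and DESeq2 14. Pdia4 was higher on the infarcted side in 5 of 5 pairs, by 0.21 at 7 d, 0.10 at 7 d with LEV, 0.32 at 1 m, 0.18 at 1 m with LEV and 0.17 at 2 m. Its mean difference was 0.19 ± 0.05 (SE, unadjusted p = 0.00147 and adjusted p = 0.380 in limma). Sdf2l1 was also higher in 5 of 5 pairs (0.15 ± 0.07, adjusted p = 0.649), and Xbp1 in 4 of 5 (0.11 ± 0.05, adjusted p = 0.627), the second of the 2 members with an unadjusted p under 0.05. Hspa5 differed by -0.01 ± 0.06, with a 95% interval of -0.14 to 0.12, and Hspa8 by -0.09 ± 0.06 (-0.23 to 0.04). Neither edgeR nor DESeq2 called a member. Microglia and phagocyte genes summed to 785 CPM in the infarcted side at 7 d and to 299 to 445 CPM in the other libraries, and reactive astrocyte genes to 875 CPM there and 332 to 660 CPM elsewhere. At 7 d without LEV the members differed between the sides by -0.06 (Hsp90aa1) to 0.26 (Sdf2l1), with Xbp1 at 0.23, Pdia4 at 0.21, Ddit3 at 0.18, Manf at 0.12, Hspa5 at 0.02 and Calr at 0.01. The part of glial cells in these side differences was not tested. No member was called for a change of the side difference with time (0% of all genes called by limma and 1056 at an unadjusted p under 0.05, lowest adjusted p of a member 0.804 for Ddit3) or with LEV (0.168% of all genes called, lowest 0.822 for Hspa8), and 0 of the 10 had an unadjusted p under 0.05 in either.

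Other genes of these pathways showed which neighbours moved with the members, in lists chosen with earlier results known. Of 22 further reticulum chaperones and folding enzymes, 5 fell and 1 rose from 7 d to 1 m, with a median of -0.18 against -0.06 over all genes, of which 10.1% fell and 5.71% rose. Pdia6, another disulfide isomerase, fell by 0.85 ± 0.12 (adjusted p = 3.2e-05), from 94.6 ± 5.19 to 52.0 ± 5.03 CPM, and stood at 115 and 102 CPM at 2 m, a course like that of Hspa5 and Pdia4. Pdia5 fell by 0.73 ± 0.16 (adjusted p = 0.00370) and Ppib, a prolyl isomerase, by 0.48 ± 0.12 (adjusted p = 0.00894). Ero1l, the oxidase that recharges disulfide isomerases, rose by 0.89 ± 0.13 (adjusted p = 7.78e-05), from 12.7 ± 1.53 to 24.2 ± 1.25 CPM, and was at 24.1 CPM in naive and 9.59 and 9.79 CPM at 2 m. It was low in the libraries in which Pdia4 and Pdia6 were high.

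Of 16 sensors and degradation factors tested, 1 fell and none rose, a share no higher than the 10.1% of all genes that fell, and their median of -0.06 was that of all genes. The gene that fell was Os9, a lectin of reticulum-associated degradation (-0.46 ± 0.12, adjusted p = 0.00961), which reached 130.0 and 119 CPM at 2 m against 56.9 CPM in naive. The sensors Ern1 (0.11 ± 0.14, adjusted p = 0.657), Eif2ak3 (-0.13 ± 0.13, adjusted p = 0.536) and Atf6 (-0.12 ± 0.12, adjusted p = 0.528), named outside the rule because they head the pathway, did not pass. Of 13 tested genes of the ATF4 and CHOP branch, Asns rose (0.44 ± 0.12, adjusted p = 0.0142) and Phgdh fell (-0.50 ± 0.14, adjusted p = 0.0146), against 5.71% and 10.1% of all genes. Both encode enzymes of amino acid synthesis.

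Of 29 tested cytosolic chaperone and heat shock genes, 4 fell from 7 d to 1 m and none rose, near the 10.1% of all genes that fell, with a median of -0.22 against -0.06. Dnaja1, a J-domain partner of Hspa8, fell by 0.82 ± 0.13 (adjusted p = 0.000117), from 404 ± 15.3 to 228 ± 20.3 CPM. Stub1, a ubiquitin ligase that binds HSP70 and HSP90, fell by 0.56 ± 0.13 (adjusted p = 0.00590), Hspa2 by 0.40 ± 0.12 (adjusted p = 0.0288) and Dnajb5 by 0.35 ± 0.12 (adjusted p = 0.0427). The stress-inducible HSP70 genes Hspa1a and Hspa1b, also named outside the rule and near-identical copies whose reads are hard to assign, ranged from 11.8 to 16.9 CPM over all 11 libraries. They differed between 1 m and 7 d by 0.07 ± 0.14 (adjusted p = 0.782) and 0.10 ± 0.14 (adjusted p = 0.654). Of 5 mitochondrial chaperone genes, Grpel1 (-0.38 ± 0.12, adjusted p = 0.0397) and Trap1 (-0.36 ± 0.12, adjusted p = 0.0393) fell.

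In the comparison of the LEV difference between times, where 2.79% of all genes were called, none of the 22 reticulum and none of the 16 sensor genes was called. Its calls over all genes, 448 here, were 1 without the filter and 2 without the trend. With 1 library left out they ranged from 0 to 725. Both sides may come from the same animals, in which case its p-values are too small. In the branch of Ddit3, Psat1 was called higher (0.83 ± 0.15, adjusted p = 0.0247) and Cebpb, whose product pairs with CHOP, lower (-0.60 ± 0.13, adjusted p = 0.0463). Cebpb stood at 32.7 and 31.1 CPM at 1 m and at 24.5 and 19.8 CPM at 1 m with LEV. Atf4, which acts on Ddit3, went the other way without passing (0.50 ± 0.12, adjusted p = 0.0578), at 27.3 and 28.6 CPM at 1 m and 38.9 and 37.8 CPM with LEV. Among cytosolic genes Hsph1 (0.50 ± 0.11, adjusted p = 0.0377) and Hspa4 (0.46 ± 0.10, adjusted p = 0.0463), both exchange factors of HSP70, were higher and Stub1 (-0.48 ± 0.10, adjusted p = 0.0369) was lower. Hspa4 stood at 119 and 126 CPM at 1 m and at 176 and 175 CPM with LEV.

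In the side and LEV comparisons limma called 0 genes of these lists, where 0% and 0.0187% of all genes tested were called. Against naive, without a test, 3 of the 22 reticulum genes (Pdia6, Hspa13 and Cnpy2) were higher by at least 0.5 on both sides at 2 m and 1, Ero1l, was lower. Over all genes tested, 8.74% were higher by that size at 2 m, the share to set beside each list. The share of all genes that were lower by that size was not counted. Of the 16 sensor and degradation genes, Os9 was higher by that size on both sides at 2 m. The sensor gene Eif2ak3 was lower, at 17.9 and 19.3 CPM against 27.85 CPM in naive. Of the 13 genes of the ATF4 and CHOP branch 4 were higher at 2 m by that size, among them Slc7a11, a cystine transporter, at 75.9 and 54.9 CPM against 32.5 CPM in naive. Of the 29 cytosolic genes, Stip1, a co-chaperone that joins HSP70 to HSP90, was higher at 2 m, at 197 and 182 CPM against 88.3 CPM in naive, while Dnaja4 (44.3 and 46.3 against 149 CPM) and Dnajb5 (63.5 and 76.9 against 116 CPM) were lower. The cytosolic list thus held genes in both directions at 2 m, where Hspa8 was at its highest. At 1 m without LEV no gene of the reticulum or cytosolic lists differed from naive by that size on both sides. Of all genes, 0.442% were higher by that size there.

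Genes that follow temperature or the time of day moved in the same comparisons. Of 16 such genes, 4 fell and 1 rose from 7 d to 1 m (10.1% and 5.71% of all genes), among them Per2 (-0.52 ± 0.13, adjusted p = 0.00843) and Rbm3, a cold-induced RNA-binding protein (-0.44 ± 0.12, adjusted p = 0.0131), which fell, and Cirbp, of the same family (0.43 ± 0.12, adjusted p = 0.0166), which rose. In the LEV comparison between times 5 of the 16 were called, all lower, where 2.79% of all genes were called in either direction (192 lower and 256 higher). Nr1d1 (-0.86 ± 0.11, adjusted p = 0.00916) and Per3 (-0.85 ± 0.11, adjusted p = 0.00830) were the first of these by size, and Per3 stood at 58.8 and 61.5 CPM at 1 m and 37.1 and 35.2 CPM with LEV. The limits given above for calls in this comparison hold here too. The sources used here do not give the hour at which tissue was taken, and the part of time of day in the chaperone and Ddit3 differences was not tested.

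Across the 11 libraries the members fell into patterns that were described by Pearson's r of log2(CPM + 1), over points that share libraries and scaling. Hspa5 went with Hspa8 (r = 0.96), Pdia4 (r = 0.93), Calr (r = 0.86) and Hsp90b1 (r = 0.82). Xbp1 went with Hsp90b1 (r = 0.83) and Pdia4 (r = 0.80), and less with Hspa5 (r = 0.68). Manf went with Sdf2l1 (r = 0.79) and less with Hspa5 (r = 0.29) or Hspa8 (r = 0.11). Among 12579 genes with a mean of at least 5 CPM, those most like Hspa5 were Gigyf2, Taldo1, Prps2, Naca and Sde2 (r = 0.98 to 0.97), and those most like Hspa8 were Tpi1, Pcdhb9, Dnajc18, Tubb2a and Ndufs1 (r = 0.99 to 0.98). Dnajc18 is a J-domain gene outside the chaperone lists, and none of these 10 genes is on those lists.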

How the data were processed

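CAGE was made from total RNA of whole hippocampus with cap-trapped, random-primed libraries, per the labels' protocols. The authors deposited 1 table of CPM, reads per gene scaled to the library total, in 11 libraries. Per the submitters' processing notes the build was GRCm38, and the tools named were HISAT2 2.0.5, BWA 0.7.17 and DESeq2 1.20.0. Their roles, the annotation and the counting rule stay unstated there. Library totals were inferred from the smallest CPM above 0. With them, all CPM values above 0 (100%) came out as whole reads to within a fraction of 0.0001 of the count. This check is weak at high counts, where that fraction allows more than rounding. Of each library's reads, 93.01% to 96.08% were in the listed genes. A count of 0 allows up to 3 reads, or 0.134 to 0.224 CPM. Intervals and floors cover counting error only. Of 22377 identifiers, 22335 matched GENCODE M21.

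The 10 genes and all lists were chosen with earlier results of these data known. Values were analysed as log2(CPM + 1) for 16057 genes with a mean of at least 1 CPM, with limma 3.58.1 (lmFit, eBayes with trend) in R 4.3.3, Benjamini-Hochberg adjustment and a threshold of 0.05. Fold changes on this scale understate changes of low genes. The side comparison used the 10 PT libraries blocked by condition, leaving 4 residual degrees of freedom. LEV and time were fitted on 4 condition means (1 residual degree of freedom, prior 21.6). The LEV difference was compared between times over 8 libraries with a side term, and side differences were compared between times and LEV states over 4 conditions. Comparisons with naive and of withdrawal had no test. Named list genes were up to 4 per list and contrast, by size among those past the threshold and otherwise by smallest p with 1 sign in all pairs; against naive, up to 3 per direction. Alternatives were other pseudocounts (0.5 and 5), filters, TMM scaling, no trend, edgeR 4.0.16 and DESeq2 1.42.0 on recovered reads, libraries left out, and libraries taken as independent. The fits were also run on simulated counts with known changes. Each simulated library was drawn independently, so this run does not test p-values where both sides share animals.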

Additional observations from a re-analysis of the deposited data

Results flagged for a closer look

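The LEV difference of Ddit3 was not the same at 1 m and 7 d by the test of that difference (-0.70 on the log2 scale, limma, adjusted p = 0.0451). It was lower with LEV in both pairs of libraries at 1 m and in 1 of 2 pairs at 7 d.

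Manf was above the naive library in all 4 libraries of 7 d, by a mean of 0.69 on the log2 scale, and below it in both libraries of 2 m, by a mean of -0.41. Sdf2l1 was above naive in all 4 libraries of 7 d, by a mean of 0.48, and below it in both libraries of 2 m, by a mean of -0.061, which is within counting error. These opposite directions were not tested, and both sets share the 1 naive library.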

How the results depend on the processing

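With 1 library per group, no value has a replicate on its side, and small differences of Sdf2l1 and Ddit3 lie within counting error. The labels carry no replicate numbers, so libraries were paired by condition and side alone.

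The same 6 members passed in the time comparison with either pseudocount, a mean of at least 5 CPM, no trend, and each of the 8 libraries left out. With 8 libraries taken as independent, 8 passed. The count was 0 without the filter and with TMM, and 2 in edgeR. Over all genes, time gave 24 calls without the filter, 334 with TMM, 907 in edgeR, 818 in DESeq2, 4991 with 8 libraries as independent, and 1061 (without PT 1 m infarcted) to 2392 with 1 library left out. LEV gave 3 calls, and 12 with a pseudocount of 0.5, 0 with a pseudocount of 5, no filter, TMM, no trend or edgeR, and 1 in DESeq2, with 8 libraries as independent, and without the 2 libraries low in choroid plexus genes, a setting added after seeing the data. With 1 library left out it gave 0 to 62 (without PT 7 d infarcted). The LEV difference between times gave 1 call without the filter, 2 without the trend, and 0 (without PT 1 m LEV infarcted) to 725 (without PT 7 d infarcted) with 1 library left out. Its members called were 0 without the filter or the trend, 2 with a mean of at least 5 CPM, 3 with TMM, and 0 to 1 with 1 library left out. Side calls were 14 in DESeq2 and 0 to 50 (without the PT 1 m pair), and the side difference between LEV states gave 0 calls without the filter or the trend and 10 with the filter at 5 CPM.

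A pseudocount of 5 lowered the counts of genes past a log2 of 1 against naive from 161 to 84 at 7 d, 148 to 87 at 7 d with LEV, 42 to 19 at 1 m, 70 to 18 at 1 m with LEV and 343 to 201 at 2 m, and from 477 to 235 between 2 m and 1 m with LEV. This follows from the pseudocount, which shrinks the changes of low genes.

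Differences near 0 turned direction, none of them past the threshold. For side, Hsp90b1 was -0.0059 with TMM, -0.0082 in edgeR and -0.0081 in DESeq2, and with 1 pair left out Hspa5 ranged from -0.051 to 0.063 and Calr from -0.051 to 0.092. For LEV, Calr was -0.0096 without the 2 libraries low in choroid plexus genes and -0.015 to 0.090 with 1 library left out. For the LEV difference between times, Hspa8 was 0.037 with TMM and -0.15 to 0.095 with 1 library left out, and Sdf2l1 -0.090 to 0.13. Hspa5 relative to Hspa8 under LEV was 0.0026 with a pseudocount of 5 and -0.045 to 0.059 with 1 pair left out. For the other differences between members and Hspa8, no alternative turned the direction. Apart from these, the cause of a change was not tested.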
